A study of Mus musculus with 3 samples.

Results

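Prdm1, Trps1, Foxd1, Alx4, Tshz1, Cpne5 and Corin were followed through single-cell transcriptomes of mouse back skin. These 7 genes, of 19165 in the deposited table, were chosen by name as regulators and companions of the dermal condensate, and all 7 were found in the table under these symbols. They were read at every stage in every lineage, and in dermal cells that held at least 1 Sox18 transcript and no Cdh5 transcript, which are called Sox18 cells here, against the other dermal cells. Sox18 is a transcription factor shared by the condensate and blood vessels, and Cdh5, the vascular cadherin, was used to leave vessel cells out. The study that reported the data, working from the same libraries, listed Sox18, Trps1, Foxd1 and Cpne5 for its condensate cluster. It also listed Prdm1, Tshz1 and Sox18 for its condensate branch. High levels of these genes in Sox18 cells are therefore not independent of that earlier naming.

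Back skin of male C57BL/6 mice was collected at E13.5, E16.5 and P0, with tissue of several animals pooled into 1 library per stage. Embryonic skin was digested with trypsin and EDTA and P0 skin with collagenase IV, so stage, library and digestion cannot be told apart. Transcripts were counted by unique molecular identifiers (UMIs) with droplet-based 3' chemistry, in 5962 cells of the E13.5 library, 5208 of the E16.5 library and 5065 of the P0 library. A level is given in CPM, the UMIs of a gene per 1000000 summed UMIs of the cells in a group, with its 95% Poisson interval in brackets. These intervals hold counting error alone, and with 1 library per stage nothing was tested, because cells are not replicates.

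Hair follicles begin as an epithelial placode above a cluster of fibroblasts, the dermal condensate, which is later enclosed by the growing follicle as the dermal papilla and signals to the hair matrix. Condensate cells leave the cell cycle, answer to Wnt, fibroblast growth factor and hedgehog signals, and take on a set of transcription factors that neighbouring fibroblasts lack. Among the genes followed here, Prdm1 is a zinc finger transcriptional repressor, Trps1 a GATA-type zinc finger repressor whose loss in people gives sparse hair, Foxd1 a forkhead factor known from kidney stroma, Alx4 a paired-type homeodomain factor of limb and craniofacial mesenchyme, and Tshz1 a zinc finger homeodomain factor of the teashirt family. Cpne5 belongs to the copines, calcium-dependent membrane-binding proteins. Corin is a transmembrane serine protease that processes atrial natriuretic peptide in the heart and is known as a dermal papilla product that acts on coat colour.

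In the mouse genome (GRCm38, GENCODE vM21) Prdm1 lies on the minus strand at chr10:44437177-44528501, Trps1 on the minus strand at chr15:50654752-50890463, Foxd1 on the plus strand at chr13:98354242-98359305, Alx4 on the plus strand at chr2:93642384-93681339, Cpne5 on the minus strand at chr17:29155556-29238167 and Corin on the minus strand at chr5:72300025-72504473. The position of Tshz1 is not given here. Alx4 overlaps the coding gene Ext2 on the other strand. Corin overlaps an antisense gene, Gm20647, and a pseudogene, Gm19560, on the other strand and 3 noncoding genes on its own strand, Cpne5 overlaps AC162182.2 on the other strand, and Trps1 holds the microRNA gene Mir1907 on its own strand. Whether strand was used in the counting is not given in the sources used here, so reads of such partners could be mixed. RefSeq (GRCm38.p6) promoter windows were found for 4 of the 7 genes, and Trps1, Alx4 and Tshz1 had none. These 4 genes were higher in Sox18 cells than in other dermal cells at E16.5 and P0, with Foxd1 at its higher level at E16.5 and Corin at P0. The 250 bases before each start are shown for that reason. In them were searched, on both strands, the letters CTTTGA of the Lef1/Tcf core, TGTTTAC of a forkhead core, TGGGTGGTC of Gli factors, AACAAT of Sox factors and the TATA box TATAAA, and capitals mark a match. The windows are Prdm1 at chr10:44458749-44458998 (minus strand, at a start inside the annotated gene), Foxd1 at chr13:98353995-98354244 (plus strand), Cpne5 at chr17:29237791-29238040 (minus strand) and Corin at chr5:72504541-72504790 (minus strand).
Prdm1: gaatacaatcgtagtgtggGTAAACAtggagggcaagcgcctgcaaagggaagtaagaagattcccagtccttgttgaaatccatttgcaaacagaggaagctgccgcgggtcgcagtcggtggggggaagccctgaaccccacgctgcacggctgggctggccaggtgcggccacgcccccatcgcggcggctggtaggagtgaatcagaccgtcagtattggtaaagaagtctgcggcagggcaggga
Foxd1: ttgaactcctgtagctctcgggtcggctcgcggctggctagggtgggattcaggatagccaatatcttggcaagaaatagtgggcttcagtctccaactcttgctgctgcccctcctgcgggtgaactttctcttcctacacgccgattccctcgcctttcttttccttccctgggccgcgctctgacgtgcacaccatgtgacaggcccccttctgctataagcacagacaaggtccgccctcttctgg
Cpne5: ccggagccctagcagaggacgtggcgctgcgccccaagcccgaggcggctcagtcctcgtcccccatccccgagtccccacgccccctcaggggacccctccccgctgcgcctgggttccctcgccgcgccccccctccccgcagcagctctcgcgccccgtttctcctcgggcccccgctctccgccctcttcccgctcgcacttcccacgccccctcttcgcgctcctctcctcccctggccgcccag
Corin: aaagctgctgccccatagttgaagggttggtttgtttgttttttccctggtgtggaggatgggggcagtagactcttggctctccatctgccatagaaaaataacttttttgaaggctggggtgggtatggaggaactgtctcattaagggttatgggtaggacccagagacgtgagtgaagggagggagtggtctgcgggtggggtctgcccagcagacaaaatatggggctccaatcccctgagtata
One match was found, a forkhead core 231 bases before the Prdm1 start, and 3.17% of 32851 RefSeq windows of this length held those letters. The share of all windows was 13.8% for the Lef1/Tcf letters, 9.42% for the Sox letters, 12.4% for TATAAA and 0.225% for the Gli letters. The Cpne5 window was 76.4% G and C with 27 CG pairs and the Corin window 51.2% with 2, against medians of 52.4% and 6 over all windows.

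In order of age the libraries held 53334740, 66239195 and 46599806 UMIs, with medians per cell of 7066.5, 11021 and 6797. Between 32 and 44 cell barcodes were shared by each pair of libraries, and 1 by all 3. Each library was clustered alone without the 7 genes, Sox18 and Cdh5, and clusters were called by the markers they carried. There were 2117, 2517 and 2200 dermal-like cells in the same order, and 8, 212 and 308 of them were Sox18 cells. The largest dermal-like cluster at E13.5, 652 cells, was led by the platelet gene Ppbp. Among P0 dermal-like cells, a cluster of 176 was led by the lymphatic genes Ccl21a and Lyve1 together with the papilla genes Bmp3 and Inhba. Clusters of 580 and 194 cells in the E16.5 library and of 464 P0 cells carried dermal markers, but their 10 leading genes held at least 1 marker of another lineage and 0 dermal ones, so they were left unnamed and out of the dermal class. The 194 cells at E16.5 were led by Dclk1, Hba-x, Cdkn1a and Sox11.

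Over whole libraries, the 7 genes followed different courses from stage to stage. In order of age, Prdm1 stood at 1.69 CPM (1.36 to 2.07), 10.9 CPM (10.1 to 11.7) and 10.7 CPM (9.81 to 11.7). Trps1 stood at 24.4, 108 and 90.4 CPM and Cpne5 at 10.1, 44.0 and 17.4 CPM, so that both were highest at E16.5. Foxd1 had 408, 1094 and 105 UMIs in the whole libraries, which is 7.65 CPM for the youngest and 2.25 CPM for the oldest. Alx4 was 4.87, 3.29 and 3.20 CPM, the last 2 with overlapping intervals. Corin was lowest in the middle, at 2.44, 0.710 and 3.61 CPM. Tshz1 went the other way from Prdm1, with 45.4, 26.9 and 23.7 CPM. From E13.5 to E16.5, where 8.22% of 14935 genes were at least 2-fold higher and 11.3% lower, 4 of the 7 genes were higher by that much (Prdm1 6.46-fold, Trps1 4.41-fold, Cpne5 4.37-fold and Foxd1 2.16-fold) and Corin was 3.44-fold lower. From E16.5 to P0, where 8.24% of 14471 genes were higher and 13.6% lower, Corin was 5.08-fold higher, and Foxd1 and Cpne5 were 7.33-fold and 2.53-fold lower. The makeup of the libraries differed as well, with 120 cartilage-like and 438 neural-like cells at E13.5 and 1589 epithelial-like cells at P0, and fewer cells of a type and fewer transcripts per cell cannot be told apart in such totals.

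At E13.5 the dermal class was not where most of these genes were highest. Foxd1 was 118 CPM (98.5 to 140) in cartilage-like cells and 22.7 CPM in tendon-like cells, the next of 11 classes of at least 50 cells, a 5.20-fold step (3.92 to 6.91), while dermal-like cells held 3.69 CPM. Trps1 had the same order at the top, with 119 CPM in cartilage-like cells and 79.5 CPM in tendon-like cells, and dermal-like cells held 11.4 CPM (9.94 to 12.9), at the bottom of the 11 classes together with melanocyte-like cells (12.4 CPM, 4.97 to 25.5). Both genes are known from skeletal mesenchyme. Alx4 was highest in tendon-like cells at 18.8 CPM, 2.81-fold (1.57 to 5.40) above Schwann-like cells. Corin too was highest in tendon-like cells at 10.0 CPM, a level that did not differ beyond its interval from the 3.66 CPM of cartilage-like cells. Tshz1 was highest in neural-like cells, 113 CPM (102 to 126), against 70.1 CPM in Schwann-like cells. Only Prdm1 and Cpne5 were highest in dermal-like cells, Prdm1 at 2.99 CPM, not distinguishable from the 2.92 CPM of endothelial-like cells, and Cpne5 at 17.9 CPM against 10.5 CPM in neural-like cells. Clustering at resolution 0.5 in place of 1 put 5 of these highest levels, those of Trps1, Foxd1, Alx4, Corin and Tshz1, in another class.

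**Figure D1:**
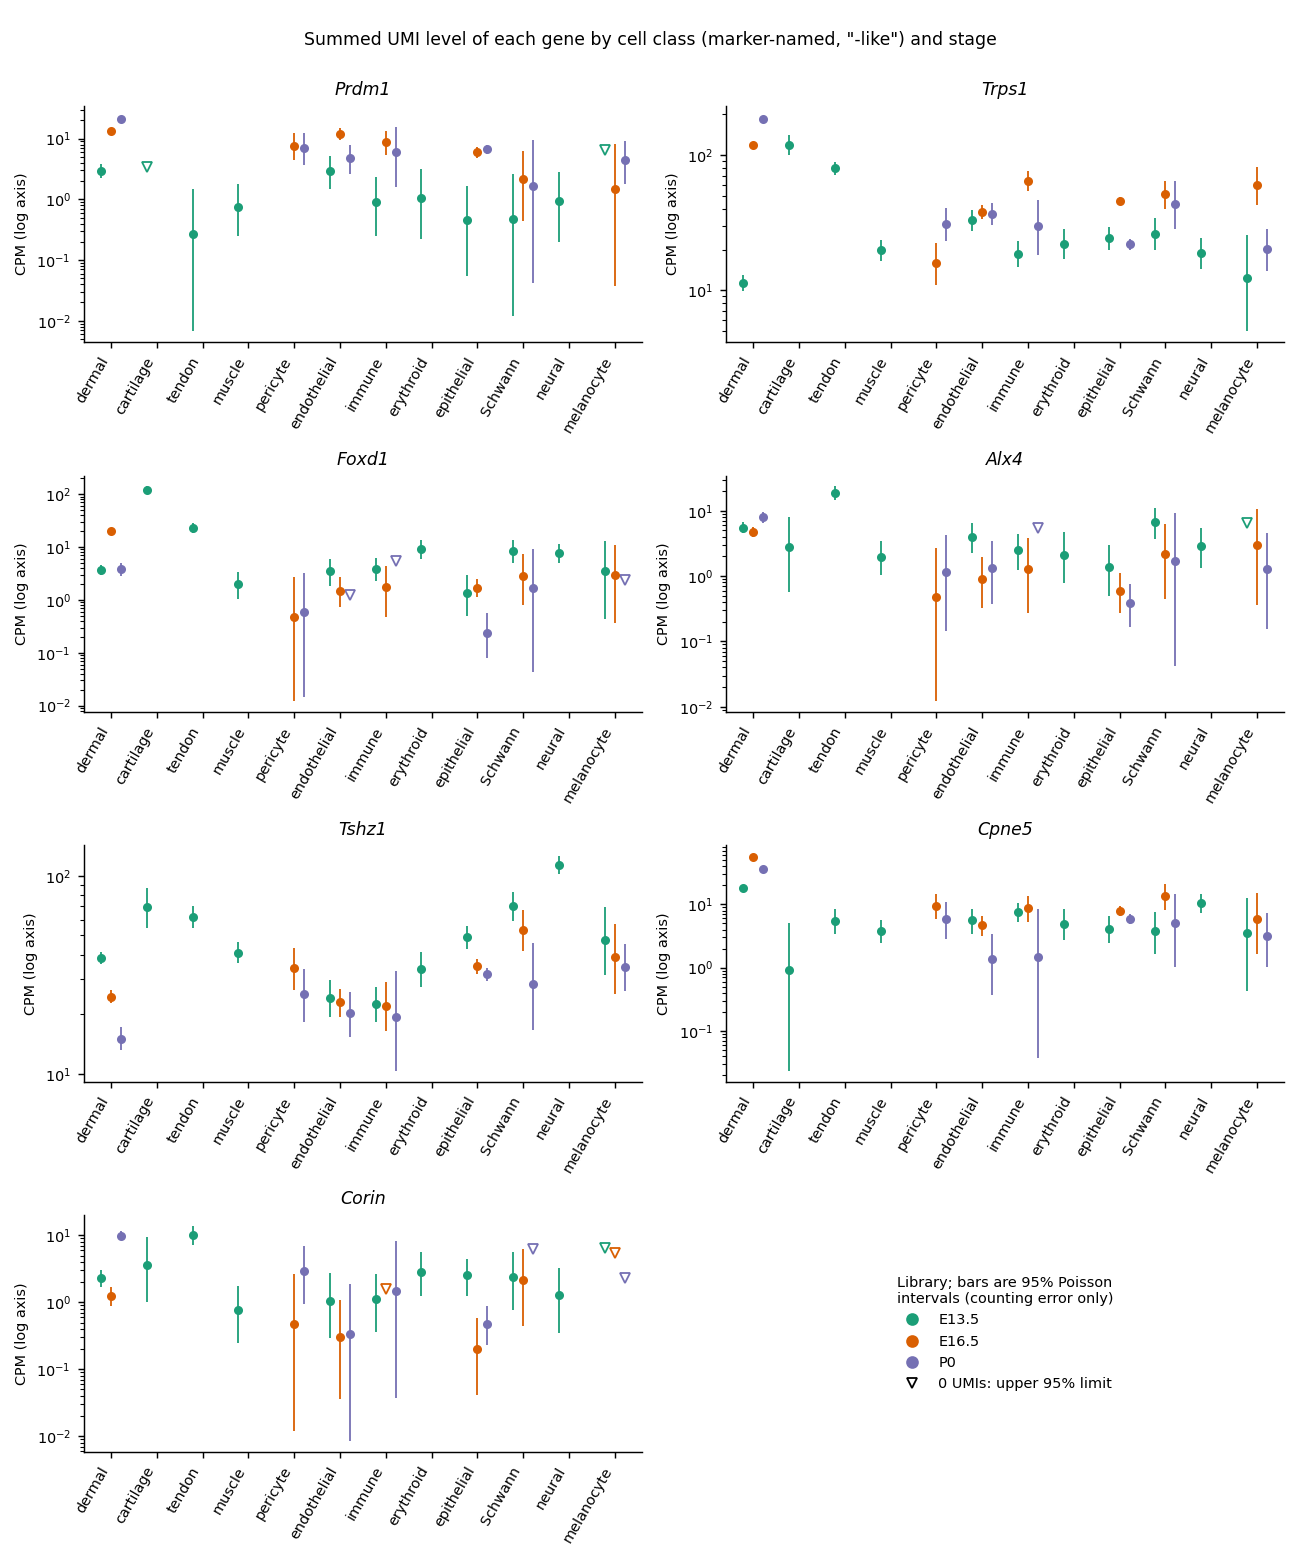
Each panel plots the level of a gene in CPM (log axis) against the marker-named cell class, with 1 point per named class of at least 50 cells in each library; bars are 95% Poisson intervals and open triangles the upper limit of a class with 0 UMIs. Foxd1 peaked at 118 CPM in E13.5 cartilage-like cells, Trps1 at 185 CPM in P0 dermal-like cells among the named classes, and Tshz1 at 113 CPM in E13.5 neural-like cells.

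From E16.5 the dermal class held the highest level of the named classes for most of the genes. At E16.5, of 7 named classes of at least 50 cells, dermal-like cells were highest for Prdm1 (13.2 CPM), Trps1 (119 CPM), Foxd1 (19.8 CPM), Alx4 (4.71 CPM) and Cpne5 (55.2 CPM). The lead over the next class was larger than counting error for Trps1, 1.85-fold (1.57 to 2.19) above immune-like cells, for Foxd1, 6.62-fold (1.82 to 54.8) above melanocyte-like cells, and for Cpne5, 4.04-fold (2.58 to 6.72) above Schwann-like cells. Prdm1 in dermal-like cells could not be told from the 12.2 CPM of endothelial-like cells (1.09-fold, 0.856 to 1.40). The 774 unnamed cells, which were left out of this order, stood above dermal-like cells for Trps1 (333 CPM), Foxd1 (66.2 CPM) and Cpne5 (152 CPM), and held 15.6 CPM of Prdm1 and 7.06 CPM of Alx4. At P0 dermal-like cells were highest of the named classes for 6 of the 7 genes, and the lead was clear of counting error for Prdm1 (20.8 CPM against 7.04 CPM in pericyte-like cells), Trps1 (185 against 43.6 CPM in Schwann-like cells), Cpne5 (36.2 against 5.89 CPM in epithelial-like cells) and Corin (9.92 against 2.93 CPM in pericyte-like cells). Foxd1 and Alx4, at 3.78 and 7.96 CPM, had next classes resting on 1 UMI each. At clustering resolution 0.5 a P0 cluster with papilla genes was named endothelial, and that class then took the highest level of these 6 genes. The 464 unnamed P0 cells held 264 CPM of Trps1, 14.8 CPM of Foxd1, 44.9 CPM of Cpne5 and 9.89 CPM of Tshz1. Tshz1 stood apart, lowest of the 7 named P0 classes in dermal-like cells at 15 CPM (13.1 to 17.2) and highest in melanocyte-like cells at 34.7 CPM, which did not differ beyond its interval from the 31.9 CPM of epithelial-like cells.

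Within the epithelium Trps1 and Prdm1 differed between the layers that could be named. Cells without a layer name were 443 of 953 at E16.5, with 32.7 CPM of Trps1 and 2.57 CPM of Prdm1. At P0 they were 827 of 1589, with 26.0 CPM of Trps1 and 8.14 CPM of Prdm1. Trps1 was 121 CPM (109 to 134) in E16.5 placode- or matrix-like cells against 7.48 CPM (4.63 to 11.4) in basal-like cells. At P0 inner root sheath-like cells held 34.9 CPM of Trps1 (26.4 to 45.3) and matrix-like cells 17.4 CPM, with an upper bound of 22.1 CPM. Prdm1, which is known from cornifying keratinocytes, was 20.6 CPM (13.9 to 29.4) in E16.5 suprabasal-like cells against 0.356 CPM in basal-like cells, but the suprabasal level rested on 30 UMIs in 7 cells and overlapped the 12.5 CPM (8.85 to 17.0) of placode- or matrix-like cells. At P0 Prdm1 was 9.03 CPM (6.48 to 12.2) in suprabasal-like cells and 3.64 CPM (1.99 to 6.10) in matrix-like cells. Foxd1 and Alx4 had 0 UMIs in the E16.5 placode- or matrix-like cells, with an upper limit of 1.18 CPM for each.

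Sox18 cells were gathered in the condensate and papilla. Sub-clusters of dermal-like cells carrying condensate and papilla markers held 325 E16.5 cells, 149 of them Sox18 cells (45.8%), and 198 P0 cells, 170 of them Sox18 cells (85.9%). Upper dermis-like cells held 32 Sox18 cells of 930 at E16.5 (3.44%) and 76 of 1275 at P0 (5.96%). At E13.5 the 8 Sox18 cells split evenly between upper dermis-like and unnamed sub-clusters. Outside the dermal class the same gate took mostly unnamed cells, 81 at E16.5 (10.5% of them) and 118 at P0 (25.4%), beside 8.42% and 14% of dermal-like cells. It also took 22 and 32 epithelial-like cells, and at E13.5 24 of the 41 cells it took in the whole library were endothelial-like.

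At E16.5, 5 of the 7 genes were at least 2-fold higher in Sox18 cells than in the rest of the dermal class and 0 were lower, where 6.2% of the 11698 genes with at least 50 UMIs in both groups together were higher and 4.2% lower. Prdm1 was 96.2 CPM (84.2 to 110) in Sox18 cells against 6.18 CPM (5.29 to 7.17), a 15.6-fold difference (12.7 to 19.1). Foxd1 was 126 CPM against 10.8 CPM, an 11.6-fold difference (9.89 to 13.7). Alx4 was 28.2 CPM against 2.72 CPM, or 10.4-fold (7.35 to 14.6). These 3 transcription factors took places 25, 37 and 44 among the 11698 genes ordered by fold. Cpne5 was 237 CPM against 39.7 CPM, or 5.98-fold (5.39 to 6.62), and Trps1 294 CPM against 104 CPM, or 2.81-fold (2.59 to 3.06). Corin was 10.1 CPM against 0.5 CPM, a 20.2-fold difference (10.0 to 42.2) that rested on 38 UMIs and so stayed under the minimum of 50. Tshz1 did not separate the groups, with 23.5 CPM (17.8 to 30.6) against 24.7 CPM (22.8 to 26.6), a ratio of 0.954 (0.713 to 1.25). The count of 5 was 3 where dermal cells were taken from the marker UMIs of each cell, which left 31 Sox18 cells.

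At P0, 6 of the 7 genes were at least 2-fold higher in Sox18 cells and 0 lower, where 7.08% of 10352 genes were higher and 4.09% lower. Alx4 was 44.2 CPM (36.2 to 53.5) in Sox18 cells against 1.04 CPM (0.556 to 1.79) in the others, 42.4-fold (23.7 to 82.2). Prdm1 was 112 CPM against 3.45 CPM, 32.3-fold (23.4 to 45.7), and Corin 53.1 CPM against 1.69 CPM, 31.5-fold (19.7 to 52.6). Alx4, Prdm1 and Corin were in places 7, 10 and 11 of 10352 genes. Cpne5 was 137 CPM against 16.9 CPM, 8.14-fold (6.82 to 9.73). Foxd1, at 8.85 CPM against 2.81 CPM, rested on 21 UMIs in Sox18 cells and was 3.15-fold higher (1.74 to 5.56). Trps1, with 355 CPM against 153 CPM, had the smallest of the 6 differences, 2.32-fold (2.14 to 2.52). Tshz1 was 18.5 CPM against 14.4 CPM, 1.29-fold (0.905 to 1.80), and its groups overlapped again. The count of 6 was 1 at clustering resolution 0.5 and 1 with dermal cells taken from marker UMIs, and in both Trps1 lost its difference. Prdm1, Alx4 and Corin had only 2 to 39 UMIs in both groups together there, under the minimum of 50, with log2 ratios of 2.86, 2.95 and 2.21 at resolution 0.5 and of 3.83, 3.33 and 1.75 with marker UMIs. Cpne5 was the gene that passed, with log2 ratios of 1.10 and 1.28.

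**Figure D2:**
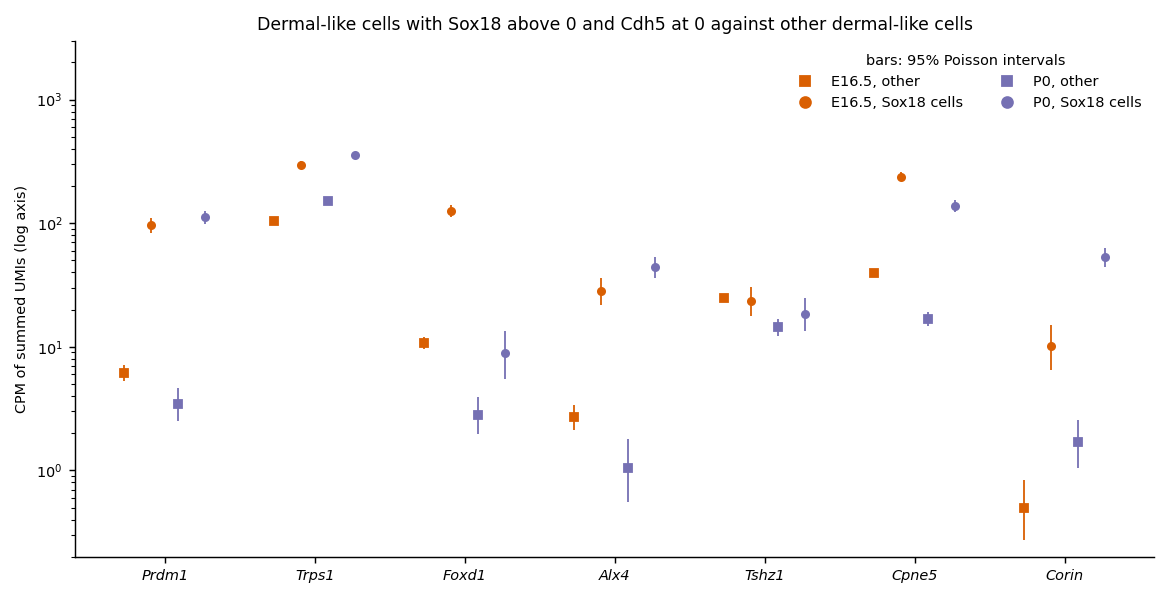
Level of each gene in CPM (log axis) in dermal-like cells with Sox18 above 0 and Cdh5 at 0 (circles) and in the other dermal-like cells (squares) of the E16.5 and P0 libraries; bars are 95% Poisson intervals. The circles sit above the squares for 6 genes in both libraries, while for Tshz1 (23.5 against 24.7 CPM at E16.5) they overlap.

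At E13.5 the comparison rested on 8 cells with 64338 UMIs and shows little. Prdm1 had 3 UMIs in them, Trps1 2, Cpne5 6, Tshz1 1 and the others 0, and 3 UMIs in this group correspond to 46.6 CPM. Prdm1, Cpne5 and Trps1 passed the 2-fold level, 3 of the 7 genes, where 12.4% of 11345 genes did. The ratio was 16.4 (3.28 to 50.3) for Prdm1, 5.28 (1.93 to 11.6) for Cpne5 and 2.75 (0.331 to 10.0) for Trps1. Tshz1 was lower, a ratio of 0.403 (0.0102 to 2.25) on its 1 UMI, where 5.27% of genes were at least 2-fold lower. With each cell thinned to 3500 UMIs, 4 cells still held a Sox18 UMI and 0 of the 7 genes passed.

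Shares of cells were compared at equal depth. Sox18 cells had a median of 9318.5 UMIs and the others 11361 in the E16.5 library, and 6863 and 6053 UMIs in the P0 library. Before thinning, Foxd1 was seen in 56.1% of Sox18 cells and 5.86% of the others at E16.5. In cells thinned to 3500 UMIs these shares were 35.4% (29.0 to 42.2, exact binomial interval) and 2.91% (2.26 to 3.68), beside 0.525% of epithelial-like cells, which should lack the gene and had a median of 13616 UMIs. At P0 the thinned share of Foxd1 in Sox18 cells was 1.62% (0.529 to 3.75), against 0.634% of other dermal-like cells, with overlapping intervals, and 0.126% of epithelial-like cells (median 9601 UMIs). Corin showed the reverse course, 4.25% of Sox18 cells at E16.5 and 12.3% at P0, where other dermal-like cells held it in 0.260% and 0.264%. Alx4 was in 12.7% and 11.7% of thinned Sox18 cells and in 1.30% and 0.423% of the others. For Prdm1 the shares in Sox18 cells were 27.8% and 24.0%, and 0.839% and 1.95% of epithelial-like cells held it. Tshz1 was found in 6.13% of E16.5 Sox18 cells and 6.51% of the others.

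**Figure D3:**
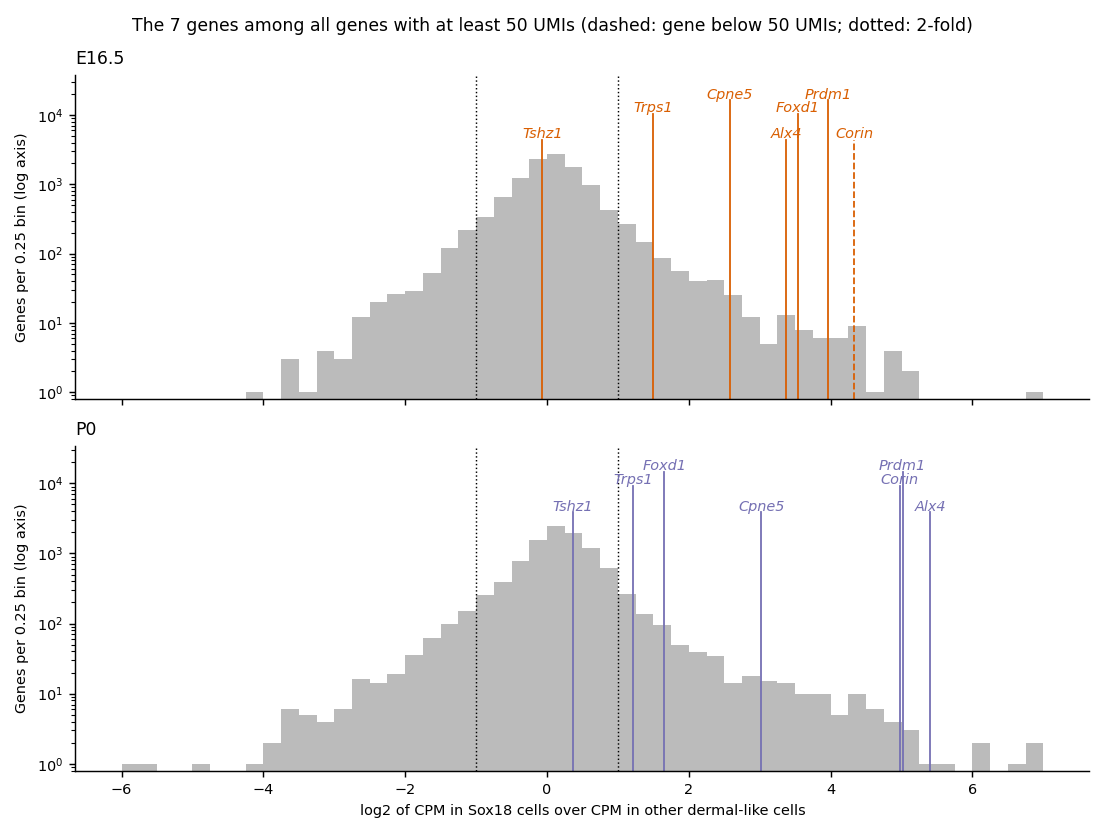
Number of genes (log axis) per bin of the log2 ratio of the level in Sox18 cells to that in other dermal-like cells, for all genes with at least 50 UMIs at E16.5 and P0; coloured lines mark the 7 genes and dotted lines 2-fold. Tshz1 lies in the bulk of genes in both panels, Alx4 is farthest right at P0 with a log2 ratio of 5.4, and Corin at E16.5 is dashed because it had 38 UMIs.

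The number of Sox18 UMIs, which the gate itself uses, was followed step by step, as a description. In dermal-like cells with Cdh5 at 0, Prdm1 at P0 was 3.50 CPM in 1849 cells with no Sox18 UMI, 29.0 CPM in 116 cells with 1, 75.3 CPM in 53 cells with 2, 82.0 CPM in 30 cells with 3 and 224 CPM in 109 cells with 4 or more. Corin at P0 went from 1.5 CPM through 21.2, 35.2 and 69.1 CPM to 91.0 CPM over the same cells. Cpne5 at E16.5 went from 38.9 CPM through 120, 272 and 319 CPM to 357 CPM. Foxd1 at E16.5 was already 86.7 CPM in the 81 cells with 1 Sox18 UMI and between 149 and 170 CPM in those with more. Over 1, 2, 3 and 4 or more Sox18 UMIs, Alx4 at E16.5 also rose at each step, 9.74, 32.3, 40.4 and 47.7 CPM. At P0 Trps1 rose as well (189, 211, 462 and 569 CPM), as did Cpne5 (45.7, 80.4, 186 and 248 CPM). Some other series had no steady order above 1 Sox18 UMI. At E16.5, over 1, 2, 3 and 4 or more, Prdm1 was 35.1, 161, 113 and 143 CPM, Trps1 207, 382, 226 and 392 CPM, and Corin 6.82, 2.69, 0 and 21.8 CPM. Alx4 at P0 was 17.8, 45.2, 34.5 and 74.4 CPM. Tshz1 was 24.6 CPM at 0 and 17.7 CPM at 4 or more Sox18 UMIs at E16.5.

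**Figure D4:**
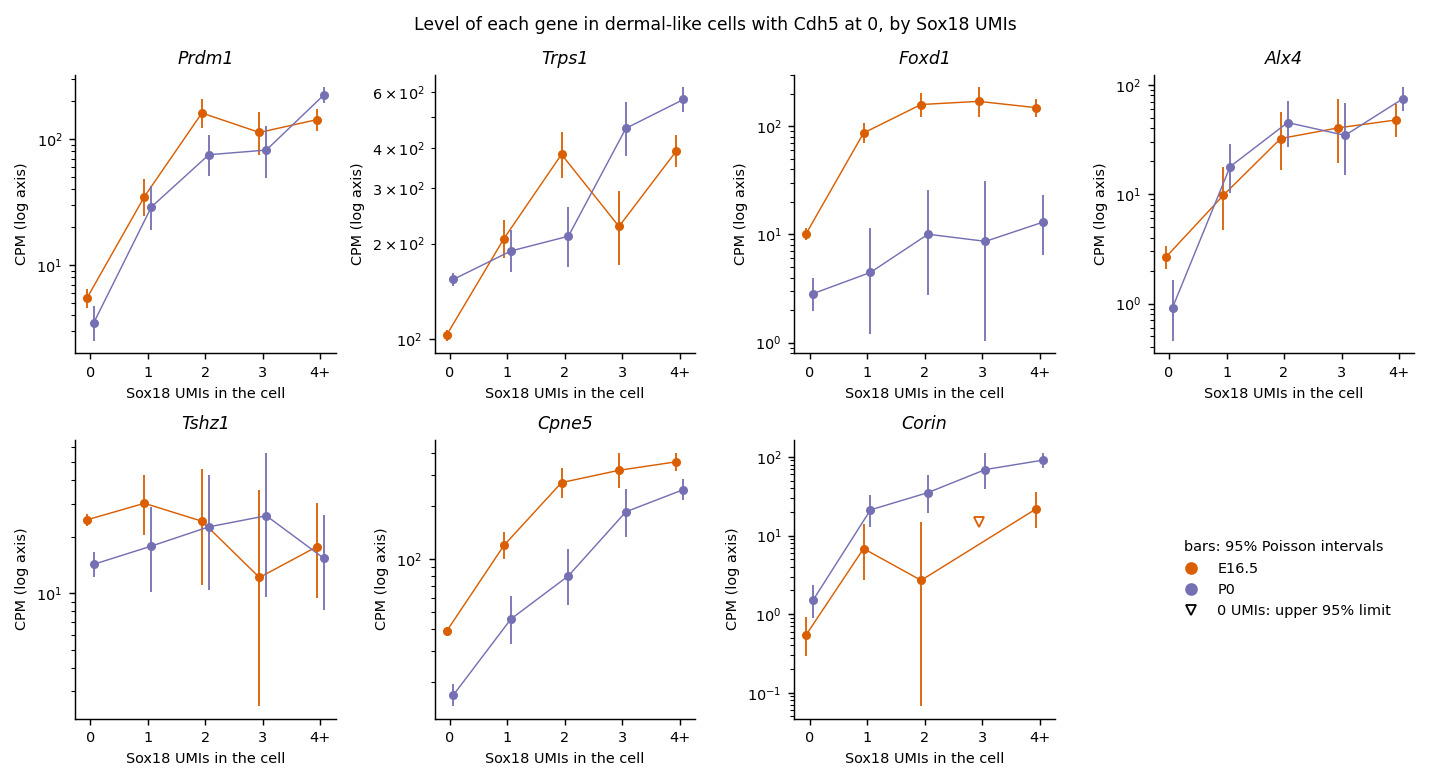
Level of each gene in CPM (log axis) against the Sox18 UMIs of the cell, in dermal-like cells with Cdh5 at 0 at E16.5 and P0; bars are 95% Poisson intervals and an open triangle is the upper limit of a group with 0 UMIs. Prdm1 at P0 goes from 3.50 CPM without a Sox18 UMI to 224 CPM at 4 or more, and Tshz1 stays between 12.1 and 30.2 CPM in every group.

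Several of the genes were found in the same cells. Over Prdm1, Trps1, Foxd1, Alx4, Cpne5 and Corin, with Tshz1 left out knowing its values and each cell thinned to 3500 UMIs, 3 or more were detected in 70 of 212 Sox18 cells at E16.5 (33.0%) and in 39 of 2305 other dermal-like cells (1.69%). At P0 the counts were 71 of 308 (23.1%) and 9 of 1892 (0.476%). Each of these genes was by itself in a larger share of Sox18 cells, which alone raises such counts there. The count to be had from the single shares was not worked out. At this depth 0 dermal-like cells of these 2 libraries held all 6. Among P0 Sox18 cells, those with a Prdm1 UMI held more of Corin, 110 CPM in 113 cells against 16.6 CPM in 195 cells, and more of Alx4, 78.9 CPM against 22.1 CPM. Tshz1 was 18.4 CPM in the former and 18.6 CPM in the latter. Not every pair went together. E16.5 Sox18 cells with a Cpne5 UMI held less Corin, on 11 UMIs against 13 in those without, a ratio of 0.307 (0.125 to 0.744). For the same pair at P0 the ratio was 12.1 (6.36 to 26.0). Cells with more UMIs are likelier to show any gene, and these splits were made without thinning. The P0 split by Prdm1 also parted papilla-like cells from the rest. A Prdm1 UMI was seen in 100 of 170 papilla-like Sox18 cells and in 13 of the 138 other Sox18 cells. Corin was 101 CPM in the former and 3.44 CPM in the latter, and Alx4 78.5 and 8.60 CPM. Whether the genes go together within papilla-like cells was not tested.

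The condensate- and papilla-like cells were not uniform. At E16.5 they formed one sub-cluster of 172 cells led by Bmp3, Sox2 and Hes5 and another of 153 cells led by the replication genes Rrm2 and Ccne2, with 0 condensate markers among its 10 leading genes. Prdm1 was 191 CPM (169 to 215) in the former and 8.01 CPM in the latter, a 23.8-fold difference (14 to 44.2). Alx4 differed 6.00-fold (3.35 to 11.5), Cpne5 3.51-fold (2.97 to 4.16), Foxd1 2.39-fold (1.94 to 2.95) and Trps1 1.97-fold (1.73 to 2.23). Corin had 29 UMIs in the former and 0 in the latter, at least 11.6-fold higher when 3 UMIs are taken as the floor of the latter. Tshz1 went the other way, 15.8 CPM against 33.2 CPM. The unnamed cluster of 194 cells led by Dclk1 and Sox11 held 216 CPM of Foxd1 (195 to 238), 485 CPM of Trps1 and 264 CPM of Cpne5, but 41.0 CPM of Prdm1 and 0 UMIs of Corin.

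At P0 the papilla-like cells were 154 cells led by Plac8, Bmp7 and Bmp3 and 44 cells led by Serpine2, Gdf10 and Alpl. The smaller sub-cluster held more Corin, 211 CPM (169 to 260) against 52.0 CPM, 4.06-fold (2.84 to 5.86), and more Alx4, 146 CPM against 42.8 CPM, 3.40-fold (2.25 to 5.17). Cpne5 was lower there, 124 CPM against 256 CPM, a ratio of 0.484 (0.351 to 0.656). Prdm1 differed 1.55-fold (1.21 to 1.99) and Trps1 1.44-fold (1.25 to 1.67). A split of the P0 Sox18 cells by Sox2, a marker of the papillae of some hair types, went the same way for these genes. It was made over all P0 Sox18 cells, 138 of them outside the papilla-like cells. Those 138 held 3.44 CPM of Corin and 8.60 CPM of Alx4. A split within papilla-like cells alone was not made. The 25 cells with a Sox2 UMI held 160 CPM of Corin against 40.8 CPM in 283 cells without, 3.93-fold (2.62 to 5.80), and 136 CPM of Alx4 against 33.8 CPM, 4.02-fold (2.58 to 6.15). Cpne5 was 86.4 CPM against 143 CPM, a ratio of 0.603 (0.368 to 0.939). At E16.5 the same split gave more Cpne5 in Sox2 cells, 339 CPM in 119 cells against 142 CPM in 93 cells (2.40-fold, 2.00 to 2.88). Of the E16.5 Sox18 cells, 63 lay outside the condensate-like cells and held 82.8 CPM of Cpne5, against 350 CPM in the 149 inside.

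**Figure D5:**
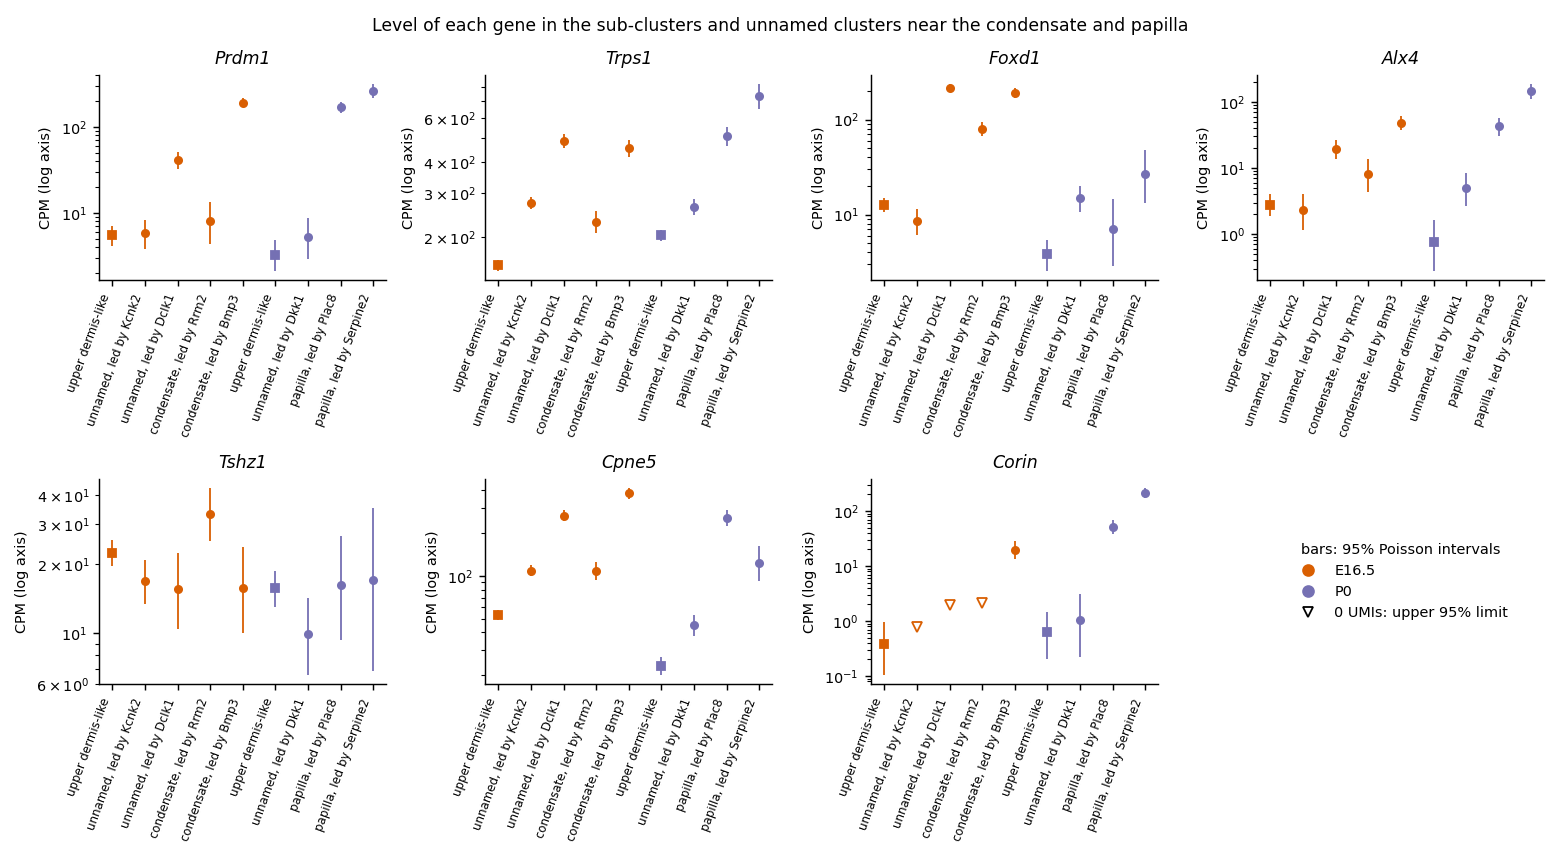
Level of each gene in CPM (log axis) in upper dermis-like cells (squares) and in the condensate- and papilla-like sub-clusters and unnamed clusters of the E16.5 and P0 libraries (circles), each given by its leading gene; bars are 95% Poisson intervals and open triangles the upper limit of a group with 0 UMIs. Corin and Alx4 are highest in the P0 sub-cluster led by Serpine2 (211 and 146 CPM), Cpne5 in the E16.5 sub-cluster led by Bmp3 (380 CPM).

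Part of the difference between Sox18 cells and other dermal-like cells was a difference between sub-clusters, as a split chosen after the values were seen showed. Inside the P0 papilla-like cells, Trps1 was 564 CPM in 170 Sox18 cells and 638 CPM in the other 28, a ratio of 0.884 (0.726 to 1.09), and outside them 138 CPM in 138 Sox18 cells and 146 CPM in 1864 others, a ratio of 0.945 (0.799 to 1.11). The 2.32-fold difference of Trps1 over all P0 dermal-like cells was thus not seen within either group. Corin inside the P0 papilla-like cells was 101 and 87.3 CPM (1.15-fold, 0.683 to 2.08). Inside, Prdm1 was 1.56-fold (1.02 to 2.48) and Alx4 2.06-fold (0.960 to 5.25) higher in Sox18 cells. Outside, Prdm1 was 9.99-fold (4.94 to 20.1), Alx4 17.6-fold (5.79 to 58.8) and Corin 8.43-fold (1.67 to 39.2) higher. These rested on 18, 10 and 4 UMIs in the Sox18 cells outside. For Foxd1 the interval included 1 both inside and outside. Cpne5 kept a difference both inside, 2.03-fold (1.30 to 3.33), and outside, 2.51-fold (1.77 to 3.49). At E16.5 Prdm1 inside the condensate-like cells was 157 CPM in Sox18 cells against 41.6 CPM (3.77-fold, 2.89 to 4.96). The ratio inside was 2.40 for Foxd1, 3.32 for Alx4 and 2.46 for Cpne5. Outside it was 3.50 for Prdm1, 5.25 for Foxd1, 3.51 for Alx4 and 2.55 for Cpne5. Trps1 had ratios of 1.45 inside and 1.54 outside, and Tshz1 of 0.627 and 1.23. The share of all genes at least 2-fold higher is not given for these splits. The Sox18 cells inside were 73.3% of the Bmp3-led sub-cluster and 15% of the Rrm2-led one, however. Within the Bmp3-led sub-cluster the ratio of 126 Sox18 cells to 46 others was 1.17 for Prdm1 (0.878 to 1.57), 0.992 for Foxd1 (0.754 to 1.32), 1.25 for Alx4 (0.698 to 2.39) and 1.29 for Cpne5 (1.048 to 1.59). Within the Rrm2-led sub-cluster Foxd1 was 212 CPM in 23 Sox18 cells and 52.9 CPM in 130 others, 4.01-fold (2.82 to 5.68), and Prdm1 had 14 UMIs in all.

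Between E16.5 and P0, Foxd1 and Corin moved in opposite directions within Sox18 cells, as a comparison of 2 libraries. Foxd1 was 14.2-fold (9.12 to 23.3) lower at P0, 8.85 against 126 CPM, where 8.55% of 8148 genes were at least 2-fold lower. Corin was 5.26-fold (3.38 to 8.52) higher, 53.1 against 10.1 CPM, where 5.3% of genes were at least 2-fold higher. The other 5 genes stayed within 2-fold, from 0.579 for Cpne5 to 1.57 for Alx4, and for Prdm1 the ratio was 1.16 (0.968 to 1.39). In the condensate- and papilla-like cells, where 7.86% of 8245 genes were at least 2-fold higher and 13.3% lower at P0, Corin was 10.9-fold (7.29 to 16.9), Alx4 2.79-fold (2.07 to 3.77) and Prdm1 2.13-fold (1.80 to 2.53) higher, and Foxd1 was 10.1-fold (6.28 to 17.1) lower. The E16.5 side of that comparison pools the Rrm2-led sub-cluster. Against the Bmp3-led sub-cluster alone, a choice made after seeing the data, the ratio was 1.02 for Prdm1 (0.859 to 1.21), 1.52 for Alx4 (1.11 to 2.09) and 4.97 for Corin (3.31 to 7.70), and Foxd1 was 14.7-fold (9.14 to 25.2) lower. In the other dermal-like cells, 6.93% of 12132 genes were higher and 16.1% lower at P0. Among those of the 7 genes with at least 50 UMIs there, 0 were higher. Foxd1 (3.84-fold, 2.70 to 5.61), Alx4 (2.60-fold, 1.43 to 5.11) and Cpne5 (2.35-fold, 2.03 to 2.74) were lower. Corin stayed under that minimum, with 21 UMIs at P0 and 14 at E16.5, but was 3.37-fold (1.64 to 7.17) higher at P0. Of these UMIs, 16 at P0 and 5 at E16.5 lay in papilla- and condensate-like cells outside the Sox18 gate. From E13.5 to E16.5 the other dermal-like cells went from 11.3 to 104 CPM of Trps1, 9.23-fold (8.06 to 10.6), where 6.58% of 12618 genes were at least 2-fold higher and 9.87% lower. Foxd1, Cpne5 and Prdm1 were also higher, 2.92-fold, 2.25-fold and 2.17-fold, and Corin and Alx4 were 4.6-fold and 2.04-fold lower.

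Other genes known from the condensate and papilla moved with the same cells. Of a list of 24, 18 were at least 2-fold higher in Sox18 cells at E16.5 and 0 lower, where 6.2% of all genes were higher and 4.2% lower. The median log2 ratio was 2.01 against 0.07 over all genes. At P0 17 of 23 with enough UMIs were higher and 0 lower, where 7.08% of all genes were higher and 4.09% lower, with a median of 1.88 against 0.18. At E13.5 it was 3 of 18, and 1 was lower, where 12.4% of all genes were higher and 5.27% lower. The sub-clusters named above were called with markers that include genes of this list. Sox2 was 153 CPM against 5.54 CPM at E16.5 (27.5-fold), and Bmp3, a bone morphogenetic protein, 227 CPM against 7.23 CPM at P0 (31.4-fold). Lef1, the nuclear partner of the Wnt pathway, was 193 against 55.8 CPM at E16.5 (3.46-fold) and Ptch1, the hedgehog receptor, 195 against 61.9 CPM (3.16-fold). Alpl, the alkaline phosphatase by which papillae are stained, was 13.0 against 3.97 CPM at E16.5 and 62.4 against 2.97 CPM at P0. Crabp1 and Twist2 were not among those higher, with ratios of 0.798 and 0.809 at E16.5. After Sox18 itself, the highest ratios at E16.5 were those of Prokr2, Ibsp, Galnt9 and Adamts18, and at P0 of Ibsp, Prokr2, Eya2 and Spock1.

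Most relatives and partners of the 7 genes did not share the pattern. Of 29 listed, 16 had at least 50 UMIs at E16.5, and 2 were at least 2-fold higher in Sox18 cells, where 6.2% of all genes were, Tshz3 (40.3 against 17.5 CPM, 2.3-fold) and the forkhead gene Foxp1 (25.6 against 12.5 CPM, 2.06-fold). Nppc was the 1 gene at least 2-fold lower. At P0 2 of 14 were higher, Gata3 (2.53-fold) and Foxp1 (2.25-fold), and 2 lower, Nppc and Npr1, where 7.08% of all genes were higher and 4.09% lower. At E13.5 1 of 17 was higher and 0 lower, where 12.4% of all genes were higher. The median log2 ratio of the list was 0.31 in the E16.5 library against 0.07 over all genes, and 0.19 against 0.18 in the P0 library. Nppc, which encodes C-type natriuretic peptide, was lower in Sox18 cells, 3.78 against 19.8 CPM at E16.5, a ratio of 0.191 (0.0871 to 0.366), and 2.95 against 18.6 CPM at P0. Npr1, the receptor of atrial natriuretic peptide, was 3.37 against 12.2 CPM at P0. Tshz2 was 17.2 against 24.9 CPM at E16.5. Foxd2, under the minimum of 50 UMIs at both stages, was 3.67-fold (1.61 to 7.66) higher in Sox18 cells at E16.5 and 2.79-fold (1.45 to 5.17) at P0.

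Over 25 groups of at least 50 cells, each a class at a stage, the genes most like each member were sought among 13339 genes by Pearson correlation of log2(CPM + 10). They were Col7a1 (r = 0.818), Tnfrsf26 and Rarres1 for Prdm1, Sec16b (r = 0.804), P4ha2 and Bmp3 for Trps1, Bmper (r = 0.909), Col9a1 and Prdm6 for Foxd1, and Pappa (r = 0.846), AI427809 and Mchr1 for Alx4. For Cpne5 they were Baiap2l2 (r = 0.913) and Frem1, for Corin Pdgfrl (r = 0.838), Larp6 and Gm15222, and for Tshz1 Wbp1 (r = 0.905), Xkr6 and Arid4b. Among the 7 genes, Alx4 and Corin were the closest pair (r = 0.783), and Prdm1 and Tshz1 the farthest (r = -0.681). Groups of a stage share a library, its depth and its free RNA.

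Genes of other lineages also differed between the groups, and their part in the results was not tested. The 10 epithelial markers summed to 1194 CPM in P0 Sox18 cells against 546 CPM in the others, with 10 of 10 higher and none at 0, and to 434 and 421 CPM at E16.5. The endothelial list without Cdh5 summed to 120 against 57.0 CPM at E16.5 (7 of 9 higher, none at 0) and to 96.5 against 131 CPM at P0 (2 of 9 higher, none at 0). The 10 erythroid markers summed to 1550 against 1584 CPM at E16.5 (2 higher, 2 at 0, Hbb-bh1 and Slc4a1) and to 410 against 952 CPM at P0 (0 higher, 5 at 0). Neural markers summed to 719 against 163 CPM at E16.5 (5 of 9 higher, with Nefl, Nefm and Snap25 at 0) and to 492 against 135 CPM at P0 (3 of 9 higher, with Stmn3, Elavl3, Nefl and Nefm at 0), and dermal markers were lower, 17020 against 32454 CPM and 19610 against 52580 CPM. Lymphatic Ccl21a was 2.95 CPM in P0 Sox18 cells and 266 CPM in the rest of the dermal class. Without the cells that held a UMI of Ccl21a, Lyve1, Mmrn1 or Prox1, a step chosen after seeing the data, the ratios were as large, 30.8 for Prdm1, 45.6 for Alx4 and 34.8 for Corin at P0.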

How the data were processed

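Back skin of pooled male mice was measured with 1 library per stage. Per the labels and the study's methods, the authors counted UMIs with Cell Ranger 2.2.0 on mm10, kept cells by their number of genes and normalized in Seurat. The deposited values are on a natural log scale (ln), taken after scaling the UMIs of each cell to 10000 and adding 1. The formula was found from the values, and inverting it gave whole UMIs (tolerance 0.001) for every value above 0. The lowest number of genes in a deposited cell was 1750. The columns were matched to stages by the prefix that the labels name.

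Libraries were clustered one by one, leaving out 9 genes (the 7 genes, Sox18 and Cdh5), by Leiden at resolution 1 on 15 neighbours, from 30 components of 2000 variable genes. Versions were scanpy 1.11.5, leidenalg 0.10.2 and Python 3.11.15. A cluster was named by the markers with the highest mean log2(CPM + 10) over the 25th percentile of clusters, with at least 3 markers at 1 or more, and stayed unnamed if its top 10 genes held more markers of another class. Names resting on fewer than 20 cells were dropped after the clusters had been seen. Dermal-like and epithelial-like cells were clustered again. Doublets were called with Scrublet (84 at E16.5, 106 at P0, and 0 at E13.5, where the caller did not work) and kept.

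UMIs were summed over the cells of a group. Ratios have exact conditional binomial intervals, levels exact Poisson intervals and shares exact binomial intervals at 95%, computed with scipy 1.17.1. A gene counts as higher at 2-fold or more with at least 50 UMIs in both groups together, and a group with 0 UMIs enters at a floor of 3. With a single library per stage there was no test. The calculation was tested on simulated data. Genes named are the 7, the genes of the 2 lists, the 5 with the highest ratio at a stage and the 3 most like each member, and leading genes of clusters, and some genes that this rule takes are not reported here. Genes and lists were chosen with earlier results of these data known. The lymphatic genes, the kept unnamed clusters, the left-out sub-clusters and the splits by sub-cluster were chosen after seeing the data.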

Additional observations from a re-analysis of the deposited data

How the results depend on the processing

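Alternatives changed the gate, the clustering, the naming of dermal cells, the minimum of genes per cell, the depth of cells, the added CPM, the weight of cells and the doublets, and 2 further ones, keeping the unnamed clusters and leaving out sub-clusters led by blood, epithelial or endothelial genes, were chosen after seeing the data. At E16.5, 5 of the 7 genes stayed at least 2-fold higher under every alternative but one. Where dermal cells were taken from the marker UMIs of each cell, which left 31 Sox18 cells of the E16.5 library and 98 of the P0 library, the number was 3 and 1, and the P0 log2 ratio of Trps1 was -0.058 and that of Foxd1 -0.13. At resolution 0.5 a P0 cluster with papilla genes was named endothelial, which left 1 gene at P0, with Prdm1, Alx4 and Corin under the minimum of UMIs, and a log2 ratio of -0.092 for Trps1, and 10 of 21 highest levels stayed in their class. At E13.5 the count of 3 became 1 with the gate in cells of any class, 0 in cells thinned to 3500 UMIs and 0 with Sox2 as the gate, where Tshz1 turned to a log2 ratio of 0.47. With no minimum of UMIs the share of all genes at least 2-fold higher was 20%, 11.5% and 12% in order of age, and with at least 200 UMIs 8.74%, 3.76% and 4.40%. No paired analysis was possible because each stage had 1 library. Over all P0 alternatives the lowest log2 ratio was 2.25 for Prdm1, 2.3 for Alx4, 1.75 for Corin and 1.10 for Cpne5. Depth limits Corin at E16.5 (38 UMIs) and Foxd1 at P0, and the 8 Sox18 cells of E13.5 support no order of the genes.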
